A study of Mus musculus with 6 samples.

Results

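The genes examined here build cholesterol, fatty acids and triglycerides in the renal cortex of male mice. They were chosen by gene name, as 46 genes in 4 branches: 18 of the sterol pathway, 6 of SREBP control, 15 of lipogenesis and 7 of triglyceride synthesis. Of the 46 genes, 45 had a probe of that name on the array, with 103 of the 56605 non-control probes and 45 of the 37074 gene names. Acat2, whose product joins acetyl-CoA units, had no probe of that name. The study asked how Huangqi decoction (HQD), a herbal formula, acts on the kidney of diabetic mice. RNA of renal cortex from 3 mice per group was hybridised to one-colour Agilent arrays, 6 in all, at 16 weeks of age and after a stated HQD treatment of 8 weeks. According to the paper, tissues were taken in the morning, when the mice had fasted overnight. The labels call one group db/m and control, and the other db/db, without a dose. The paper and the deposited design text instead describe db/db mice with and without HQD, so that it is unsettled whether the first group differs by genotype, by treatment or by both. The groups are called labelled db/m (arrays m1, m2 and m3, after the replicate number) and labelled db/db (arrays d1, d2 and d3) below. Differences are log2 values of the first group minus those of the second. The db/db mice are C57BLKS/J mice that carry a mutated leptin receptor in every tissue, and become obese and diabetic. The db/m mouse carries 1 working copy and stays lean.

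Cholesterol is made from acetyl-CoA through mevalonate, farnesyl pyrophosphate, squalene and lanosterol, and each step has its own enzyme. The transcription factors SREBP-1 and SREBP-2 are held in the endoplasmic reticulum by the Insig proteins and carried to the Golgi by Scap, and once cleaved they raise the genes of sterol and fatty acid synthesis. Fatty acids are built from citrate-derived acetyl-CoA, lengthened and desaturated, and joined to glycerol to form triglycerides, which are stored in droplets coated by perilipins. Droplets of neutral lipid in tubular and glomerular cells are a known feature of the diabetic kidney.

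Most members were lower in labelled db/m, by small amounts. All 45 genes passed the filter on dim probes, which asks for a signal well above background on every array of one group, and were tested with limma, each by its brightest tested probe. The difference was below 0 for 38 genes and above 0 for 7, with a median of -0.17 against -0.02 for all 20357 genes tested. Of all genes, 52.6% were below 0. At an unadjusted p under 0.05, 10 members were lower, which is 22.2% of them, against 9.19% of all genes. 1 member, Elovl6, was higher, against 6.67% of all genes. None passed a Benjamini-Hochberg adjusted p of 0.05, as none of all genes did (0%), and the lowest adjusted p of a member was 0.240. None of the members by its brightest probe reached a 2-fold difference with an unadjusted p under 0.05, which 1.04% of all genes did, and the differences ran from -0.69 to 0.41. On 11 members every labelled db/m array lay below every labelled db/db array, against 15% of all genes, and on 1 it lay above, against 7.24%. The count of 10 lower genes moved with the arrays, and so did the share of all genes. It was 3 without array m3 (against 3.21% of all genes), 5 without array d2 (4.21%), 7 without array m1 (6.26%) or array d1 (4.52%), 10 without array d3 (11.2%) and 14 without array m2 (12.6%). Taking the slide as a block left 2 members lower, against 5.8% of all genes, and 2 higher, against 3.82%. Under quantile normalization 28 of the 45 members were lower, with a median of -0.06 against 0.01 for all genes. Then 8 were lower at an unadjusted p under 0.05, against 7.72% of all genes.

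**Figure D1:**
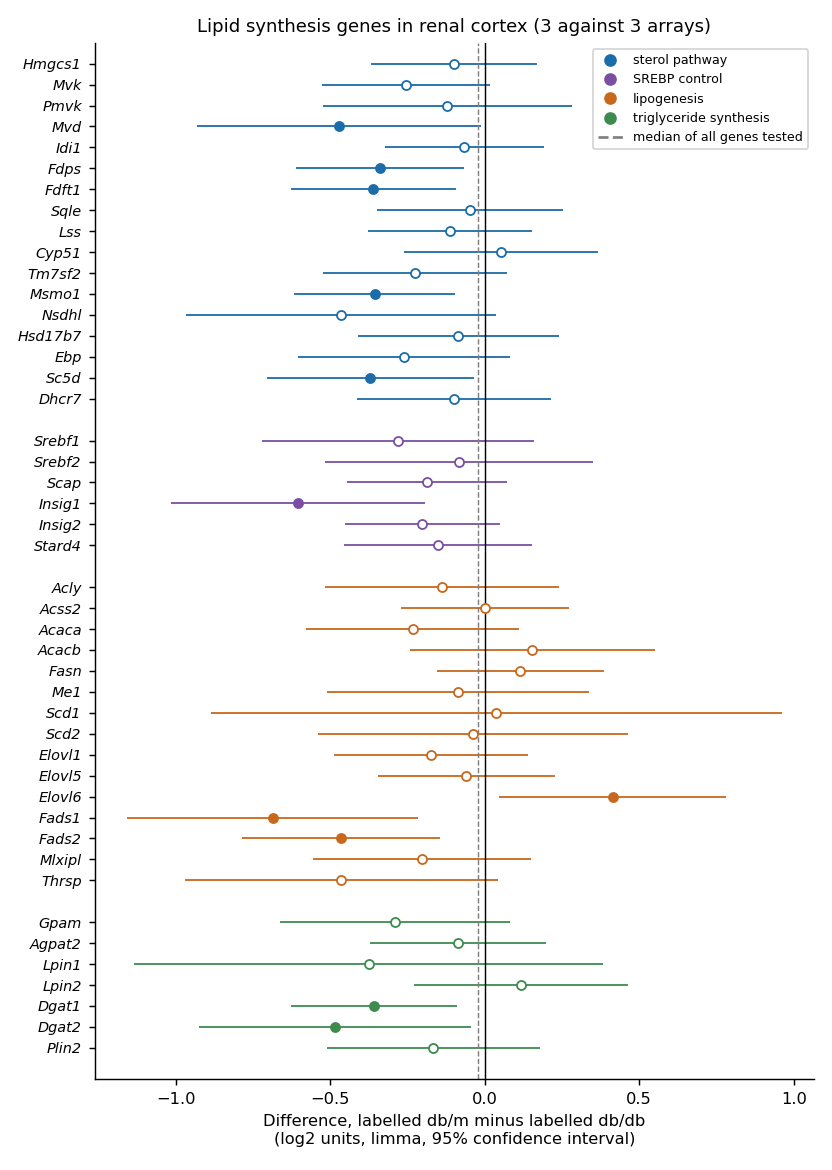
The difference of each member by its brightest tested probe (labelled db/m minus labelled db/db, log2 units) is plotted as a point with its 95% confidence interval from limma, 3 arrays per group; filled points have an unadjusted p under 0.05. Of the 45 points, 38 lie below 0 and the dashed line marks the median of all genes tested, -0.02.

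The difference of all genes moved with how bright their probes were, and this touches each count above and below. With the genes tested put into 4 groups of equal size by mean signal, the median difference was 0.21 in the dimmest, then 0.05, then -0.06, and -0.15 in the brightest. The members lay mostly among the brighter genes, with 1, 2, 23 and 19 in the order from dim to bright. Their medians there were -0.60, -0.28, -0.23 and -0.12. In the second brightest group 8 of 23 members were lower at an unadjusted p under 0.05, against 11.3% of all its genes. In the brightest group this held for 1 of 19 members, against 14.2% of all its genes. With the genes put into 20 bins by signal, the upper quartile of all genes in the brightest bin was itself below 0, at -0.08. The part of signal strength in the members' differences was not tested beyond these values.

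**Figure D2:**
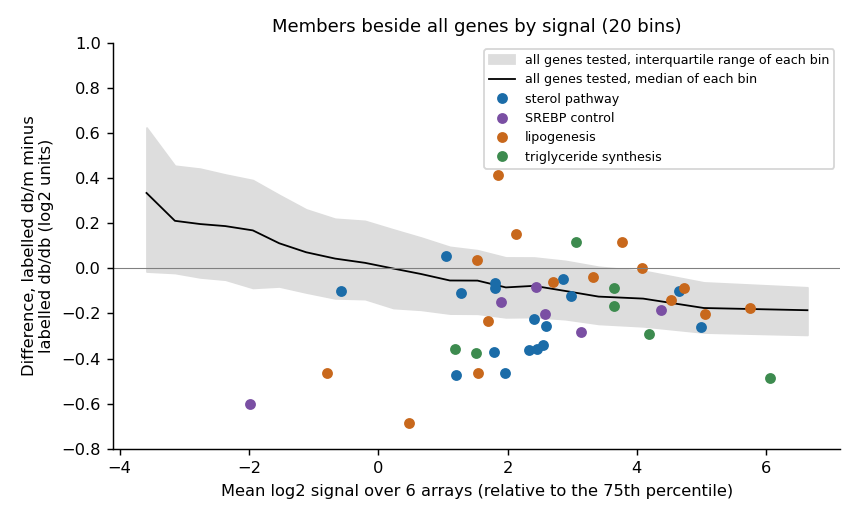
The difference of each member (log2 units, coloured by branch) is set against its mean log2 signal over 6 arrays, with the median and the interquartile range of all genes tested in 20 bins of equal size. The line of all genes runs from 0.33 in the dimmest bin to -0.19 in the brightest, and most members of intermediate signal lie under it.

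In the sterol pathway, 16 of 17 tested genes were lower, against 52.6% of all genes, and 1 was higher. The median difference was -0.23. Of these, 5 were lower at an unadjusted p under 0.05 (29.4%, against 9.19% of all genes) and none was higher (against 6.67%). The 5 were Mvd, Fdps, Fdft1, Msmo1 and Sc5d, which lie at different steps, while the first tested enzyme and the squalene epoxidase differed little. Signals below are log2 values relative to the 75th percentile of the array, and a probe's level is compared only with itself.

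The steps from acetyl-CoA to farnesyl pyrophosphate came first. Hmgcs1, the synthase that condenses acetoacetyl-CoA with acetyl-CoA, had signals of 4.55, 4.70 and 4.55 on the labelled db/m arrays and 4.73, 4.79 and 4.58 on the labelled db/db arrays. The groups overlapped, and the difference of -0.10 (SE 0.11, limma adjusted p = 0.635) turned to 0.06 under quantile normalization. Mvk, mevalonate kinase, had 2.58, 2.40 and 2.43 against 2.78, 2.80 and 2.60. Its groups did not overlap, by a narrow margin, with a difference of -0.25 (SE 0.11, limma adjusted p = 0.298). A second Mvk probe differed by -0.44 (limma adjusted p = 0.262). Mvd, the decarboxylase that makes isopentenyl pyrophosphate, gave 0.67, 1.36 and 0.88 in labelled db/m. The labelled db/db arrays gave 1.34, 1.60 and 1.39, so that only array m2 reached into their range. The difference was -0.47 (SE 0.19, limma adjusted p = 0.278), and it ran from -0.67 without array m2 to -0.32 without array m1. The unadjusted p was above 0.05 when any array but m2 was left out, under quantile normalization, in the deposited log2 matrix, with no filter on dim probes and under the methods' t-test. Fdps, which makes farnesyl pyrophosphate, had signals of 2.36, 2.48 and 2.29 against 2.61, 2.71 and 2.83. Every labelled db/m array was lower, by -0.34 on average (SE 0.11, limma adjusted p = 0.245). With 1 array left out it ran from -0.39 to -0.28, and the unadjusted p was above 0.05 without array m1, m3 or d3. Pmvk and Idi1, the kinase and the isomerase between these enzymes, differed by -0.12 and -0.07.

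Fdft1, squalene synthase, commits farnesyl pyrophosphate to sterols. Its probe lies on chromosome 14 from 63765457 to 63765516 (mm9, minus strand), and its signals were 2.23, 2.17 and 2.05 in labelled db/m and 2.42, 2.61 and 2.50 in labelled db/db. The groups did not overlap and differed by -0.36 (SE 0.11, limma adjusted p = 0.240), which is a 1.28-fold higher signal in labelled db/db. With 1 array left out it ran from -0.41 to -0.31, and the unadjusted p was above 0.05 without array m3 or d2. A second probe, whose ends lie from 63765750 to 63769990, differed by -0.38, also with an unadjusted p under 0.05. Sqle, which oxidises squalene and is a control step, had 2.82, 2.94 and 2.74 against 2.85, 3.06 and 2.73. These values overlapped throughout, with a difference of -0.05 (SE 0.13, limma adjusted p = 0.848) that turned to 0.05 under quantile normalization, and a 95% confidence interval from -0.35 to 0.25.

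Lss closes squalene epoxide into lanosterol. By its brightest probe the arrays read 1.19, 1.29 and 1.20 against 1.22, 1.47 and 1.32, a difference of -0.11 (SE 0.11, limma adjusted p = 0.589). A dimmer Lss probe did not overlap between the groups and differed by -0.27 (limma adjusted p = 0.271). Cyp51, the lanosterol demethylase, was the 1 sterol enzyme above 0, at 0.05.

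Msmo1, the oxidase that removes the methyl groups of the sterol ring, had signals of 2.28, 2.36 and 2.19 in labelled db/m and 2.55, 2.74 and 2.60 in labelled db/db. The groups stood apart, with a difference of -0.36 (SE 0.11, limma adjusted p = 0.240). A second Msmo1 probe read 0.15, -0.25 and -0.26 against 0.50, 0.68 and 0.40 and differed by -0.65 (SE 0.15, limma adjusted p = 0.240), a 1.57-fold higher signal in labelled db/db. Sc5d, which sets the double bond of lathosterol, had 1.53, 1.68 and 1.59 against 1.85, 2.23 and 1.83. Both of its probes stood apart between the groups, at -0.37 (SE 0.14, limma adjusted p = 0.264) and -0.39. With 1 array left out the brightest probe of Msmo1 ran from -0.40 to -0.30, with an unadjusted p above 0.05 without array m3 or d2. That of Sc5d ran from -0.44 to -0.24, with an unadjusted p above 0.05 without array m1, m3 or d2, with no filter on dim probes and under the methods' t-test.

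Tm7sf2, a sterol reductase, had 2.27, 2.41 and 2.21 against 2.38, 2.69 and 2.50 by its brightest probe, with a difference of -0.23 (SE 0.12, limma adjusted p = 0.360). Its other probe stood apart at -0.45 (limma adjusted p = 0.240). Hsd17b7, a ketosteroid reductase of the same stretch, had 1.61, 1.80 and 1.87 against 1.89, 1.998 and 1.65. This probe differed by -0.09 (SE 0.14, limma adjusted p = 0.738), while a dimmer one stood apart at -0.41, with an unadjusted p under 0.05. By their brightest probes the remaining enzymes Nsdhl, Ebp and Dhcr7 differed by -0.47, -0.26 and -0.10, each with overlapping groups and an unadjusted p above 0.05. A dimmer Ebp probe stood apart at -0.24 (limma adjusted p = 0.325), also with an unadjusted p above 0.05.

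Among the genes that control the pathway, all 6 were lower, against 52.6% of all genes, with a median of -0.19. Insig1, the anchor of SREBP and itself a sterol-responsive gene, had the largest difference of the 6 by their brightest probes. Its signals were -2.49, -1.997 and -2.38 in labelled db/m and -1.63, -1.53 and -1.91 in labelled db/db (probe on chromosome 5, 28404246 to 28404305, mm9, plus strand). No labelled db/m array reached the labelled db/db range. The difference was -0.60 (SE 0.17, limma adjusted p = 0.240), or a 1.52-fold higher signal in labelled db/db, and it ran from -0.75 to -0.50 with 1 array left out, with an unadjusted p under 0.05 each time. Taking the slide as a block put that p above 0.05, at a difference of -0.59. Insig1 had a single probe.

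Insig2, the second anchor, had 2.55, 2.46 and 2.42 against 2.64, 2.78 and 2.61. The groups were apart, and the difference was -0.20 (SE 0.11, limma adjusted p = 0.342). Both dimmer Insig2 probes were apart as well, at -0.36 and -0.37, each with an unadjusted p under 0.05.

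By their brightest probes the factors themselves differed less than Insig1. Srebf1, which encodes SREBP-1, had signals of 3.34, 2.78 and 2.85 against 3.48, 3.20 and 3.12. Array m1 lay within the labelled db/db range, and the difference was -0.28 (SE 0.18, limma adjusted p = 0.422). Without that array the difference was -0.46, with an unadjusted p under 0.05, and taking the slide as a block turned it to 0.21. Srebf2, which encodes SREBP-2, had 2.29, 2.50 and 2.39 against 2.32, 2.25 and 2.87. The single high array, array d3, set the direction: the difference was -0.08 (SE 0.18, limma adjusted p = 0.811), and 0.11 without it. A dimmer Srebf2 probe read -1.83, -1.78 and -2.91 against -1.76, -1.37 and -1.50, narrowly apart, with a difference of -0.63 (SE 0.31, limma adjusted p = 0.324). The mean of both probes differed by -0.36, and taking the slide as a block put the brightest one at -0.57 with an unadjusted p under 0.05. Scap, the escort protein, and Stard4, a cytosolic sterol carrier, differed by -0.19 and -0.15.

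The letters near the start sites of these genes are shown for Insig1 and those of the 5 sterol genes lower at an unadjusted p under 0.05 that the table holds (Mvd, Msmo1 and Sc5d), with Hmgcs1 as the textbook SREBP target. They are the 250 bases before the transcription start from the RefSeq promoter table (GRCm38.p6), written along the gene's strand, with capitals on each match to the SREBP element TCACNCCAC, the E-box CACGTG or the NF-Y box CCAAT on either strand (its reverse reads ATTGG). NF-Y is a factor that assists SREBP at many sterol genes. The windows lie at chr13:119690101-119690350 (plus) for Hmgcs1, chr8:122443423-122443672 (minus) for Mvd, chr8:64733579-64733828 (minus) for Msmo1, chr9:42264301-42264550 (minus) for Sc5d and chr5:28071162-28071411 (plus) for Insig1.
Hmgcs1: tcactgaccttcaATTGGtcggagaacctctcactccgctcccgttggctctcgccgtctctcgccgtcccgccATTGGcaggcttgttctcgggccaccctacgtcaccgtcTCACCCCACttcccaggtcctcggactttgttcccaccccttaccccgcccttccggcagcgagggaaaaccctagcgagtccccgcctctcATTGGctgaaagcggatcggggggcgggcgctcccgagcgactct
Mvd: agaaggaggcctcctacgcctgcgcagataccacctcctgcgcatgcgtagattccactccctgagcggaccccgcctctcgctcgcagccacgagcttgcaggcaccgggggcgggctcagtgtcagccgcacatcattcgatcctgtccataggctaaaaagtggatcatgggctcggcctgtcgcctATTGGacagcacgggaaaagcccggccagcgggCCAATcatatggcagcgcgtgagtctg
Msmo1: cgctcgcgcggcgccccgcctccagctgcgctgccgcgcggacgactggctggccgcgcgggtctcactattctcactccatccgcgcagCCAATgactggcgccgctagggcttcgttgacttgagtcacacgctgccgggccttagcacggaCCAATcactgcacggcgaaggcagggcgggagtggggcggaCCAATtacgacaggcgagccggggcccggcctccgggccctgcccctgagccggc
Sc5d: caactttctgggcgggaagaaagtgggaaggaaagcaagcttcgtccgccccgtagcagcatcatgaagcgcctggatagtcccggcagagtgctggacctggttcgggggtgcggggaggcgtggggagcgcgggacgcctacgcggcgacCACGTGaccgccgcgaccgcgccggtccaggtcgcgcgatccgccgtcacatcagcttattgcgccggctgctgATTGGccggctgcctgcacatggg
Insig1: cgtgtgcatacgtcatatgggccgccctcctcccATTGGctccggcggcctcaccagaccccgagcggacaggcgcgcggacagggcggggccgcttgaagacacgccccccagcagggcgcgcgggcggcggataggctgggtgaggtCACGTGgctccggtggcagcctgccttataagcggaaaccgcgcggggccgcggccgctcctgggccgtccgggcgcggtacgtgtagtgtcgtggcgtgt

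In the table, 37 of the 46 genes had a window of 300 bases, from 250 before to 50 after the start. At least 1 NF-Y box was in a window of 30 of the 37 genes, against 41.1% of all 27025 genes, and in 14 of 15 sterol pathway genes. It was in 4 of 5 genes of SREBP control, 9 of 12 of lipogenesis and 3 of 5 of triglyceride synthesis. The E-box was in 9 of the 37, against 8.09% of all genes, Insig1 and Sc5d among them. The exact SREBP element was in 2, Hmgcs1 and Mlxipl, against 1.44% of all genes. Msmo1, which was lower, held 3 NF-Y boxes, and Hmgcs1, which overlapped between the groups, held 3 in the bases shown. Fads2 and Elovl6, which differed in opposite directions, held none of the 3 motifs, and neither did Acat2, Acaca, Agpat2 or Lpin1.

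Lipogenesis was the branch with the smallest shift. Of 15 genes 10 were lower (66.7%, against 52.6% of all genes) and 5 higher. The median was -0.09 and turned to 0.03 under quantile normalization and in the deposited log2 matrix. The groups overlapped for Fasn and Acaca, which build saturated chains. Both polyunsaturated desaturases were lower, and the palmitate elongase was higher.

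Fads1 and Fads2 are the delta-5 and delta-6 desaturases that make polyunsaturated fatty acids from dietary precursors, and they are neighbours on chromosome 19. Fads1 read -0.11, 0.47 and 0.06 in labelled db/m and 1.06, 0.86 and 0.55 in labelled db/db (10270530 to 10270589, mm9, plus strand). The groups did not overlap, and the difference of -0.69 (SE 0.20, limma adjusted p = 0.240) was the largest of the members by their brightest probe, a 1.61-fold higher signal in labelled db/db. A second Fads1 probe, from 10261805 to 10261864, overlapped between the groups and differed by -0.04. For Fads2 the signals were 1.16, 1.55 and 1.21 against 1.81, 1.76 and 1.73 (10138750 to 10139180, mm9, minus strand). These arrays were apart by a difference of -0.47 (SE 0.13, limma adjusted p = 0.240). Of 5 tested Fads2 probes all were lower, from -0.31 to -0.58, and 3 had an unadjusted p under 0.05. When 1 array was left out, Fads1 ran from -0.85 to -0.56 and Fads2 from -0.59 to -0.39, each time with an unadjusted p under 0.05. That p was above 0.05 for both when the slide was a block, and for Fads1 by the mean of its probes.

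Elovl6 lengthens palmitate and was the 1 member higher at an unadjusted p under 0.05. Its arrays read 2.28, 1.77 and 2.13 in labelled db/m and 1.74, 1.58 and 1.62 in labelled db/db, with no overlap (chromosome 3, 129337756 to 129337815, mm9, plus strand). The difference was 0.41 (SE 0.15, limma adjusted p = 0.261), or 1.33-fold higher in labelled db/m. With 1 array left out it ran from 0.30 to 0.56, and the unadjusted p was above 0.05 without array m1, m3, d2 or d3, under median centring, with no filter on dim probes and under the methods' t-test. Elovl1, which lengthens very long chains, had 5.50, 5.77 and 5.73 against 5.70, 5.99 and 5.83, a difference of -0.17 (SE 0.13, limma adjusted p = 0.479) that turned to 0.01 under quantile normalization. A dimmer Elovl1 probe was apart between the groups at -0.34, with an unadjusted p under 0.05. Elovl5, the elongase of polyunsaturated chains, differed by -0.06.

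Fasn, the fatty acid synthase, had signals of 3.77, 3.75 and 3.97 against 3.63, 3.76 and 3.75. The groups overlapped, with a difference of 0.12 (SE 0.11, limma adjusted p = 0.578), which was -0.07 under median centring, and a 95% confidence interval from -0.15 to 0.38. Acaca, the cytosolic acetyl-CoA carboxylase that feeds it, read 1.72, 1.45 and 1.59 against 2.03, 1.81 and 1.62. It overlapped as well, at -0.23 (SE 0.14, limma adjusted p = 0.400). Acacb, the carboxylase at the mitochondrion whose product restrains fatty acid import, had 2.52, 1.91 and 2.19 against 2.10, 1.97 and 2.09, a difference of 0.15 (SE 0.17, limma adjusted p = 0.616) that was -0.03 under median centring. A dim Acacb probe was higher by 0.92 (limma adjusted p = 0.250), with overlapping arrays. Acly and Acss2, which supply acetyl-CoA, differed by -0.14 and 0.00, and Me1, which supplies NADPH, by -0.09.

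Scd1, the stearoyl-CoA desaturase, had a wide spread within labelled db/m. Its signals were 2.47, 1.03 and 1.16 there and 1.84, 1.35 and 1.36 in labelled db/db. The difference was 0.04 (SE 0.39, limma adjusted p = 0.962), with a 95% confidence interval from -0.88 to 0.96. It was -0.42 without the high array, array m1. In the fit with a slide term, whose contrast rests on that array and array d3, it was 1.11. Its paralog Scd2 differed by -0.04.

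Of the lipogenic regulators, Thrsp (Spot 14) had -1.40, -0.75 and -0.94 against -0.58, -0.29 and -0.82 by its brightest probe. Array m2 reached into the labelled db/db range, and the difference was -0.46 (SE 0.21, limma adjusted p = 0.303). Its second probe read -2.71, -2.09 and -2.27 against -0.69, -1.37 and -1.999. This probe was apart at -1.004 (SE 0.34, limma adjusted p = 0.245), and was the 1 member probe with a difference of at least 2-fold and an unadjusted p under 0.05. Mlxipl, the carbohydrate-responsive factor ChREBP, differed by -0.20 by its brightest probe and by 0.37 and 0.33 by dimmer ones, none with an unadjusted p under 0.05.

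Of the 7 genes of triglyceride synthesis 6 were lower, against 52.6% of all genes, and 1 was higher. The median signal of this branch was 3.64. In the bin of all genes with a mean signal of 3.41 the upper quartile of the differences was 0.007, and at 4.10 it was -0.011. The median difference of the 7 genes by brightest probe, -0.29, was the lowest of the branches. That place was lost by the mean of all tested probes, at -0.18 against -0.32 for the sterol pathway. It was also lost without array m1, at -0.14 against -0.23 for SREBP control. Without array d2 it was narrowly lost, at -0.173 against -0.175 for SREBP control. Both acyltransferases of the last step were lower at an unadjusted p under 0.05. Dgat1 had signals of 1.08, 1.02 and 0.91 in labelled db/m and 1.47, 1.36 and 1.25 in labelled db/db (chromosome 15, 76333128 to 76333274, mm9, minus strand). Its groups were apart by a difference of -0.36 (SE 0.11, limma adjusted p = 0.240), or 1.28-fold. Dgat2 read 5.56, 6.09 and 5.78 against 6.25, 6.56 and 6.08. Array m2 just exceeded array d3, and the difference was -0.48 (SE 0.19, limma adjusted p = 0.266), or 1.40-fold. When 1 array was left out, Dgat1 ran from -0.42 to -0.30, with an unadjusted p above 0.05 without array m3 or d1. Dgat2 ran from -0.62 to -0.35, with an unadjusted p above 0.05 without array m1, m3, d1 or d2, under quantile normalization, in the deposited log2 matrix, with no filter on dim probes and under the methods' t-test. Taking the slide as a block put the unadjusted p above 0.05 for these 2 genes and for the 5 sterol genes named above.

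Gpam, the mitochondrial acyltransferase that starts glycerolipid synthesis, had 3.98, 4.26 and 3.89 against 4.20, 4.57 and 4.23. The groups overlapped by 1 array, with a difference of -0.29 (SE 0.16, limma adjusted p = 0.349). A dim second probe was apart at -0.46, with an unadjusted p under 0.05. Agpat2, which adds the second acyl chain, read 3.71, 3.45 and 3.63 against 3.68, 3.78 and 3.59, a difference of -0.09 (SE 0.12, limma adjusted p = 0.696) that turned to 0.03 under quantile normalization. Its other probe was apart at -0.27, with an unadjusted p under 0.05. Plin2, the coat protein of droplets, had 3.39, 3.77 and 3.53 against 3.60, 3.90 and 3.69, with overlapping groups and a difference of -0.17 (SE 0.14, limma adjusted p = 0.534).

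The lipins, phosphatases that make diacylglycerol, lay on either side of 0 by their brightest probes, each with overlapping groups. Lpin1 differed by -0.38 with a wide interval from -1.14 to 0.38, and its lowest array was array m1. Lpin2 differed by 0.12, with an interval from -0.23 to 0.46. Dimmer tested probes of each gene lay on both sides of 0, and a difference between the 2 genes was not tested.

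**Figure D3:**
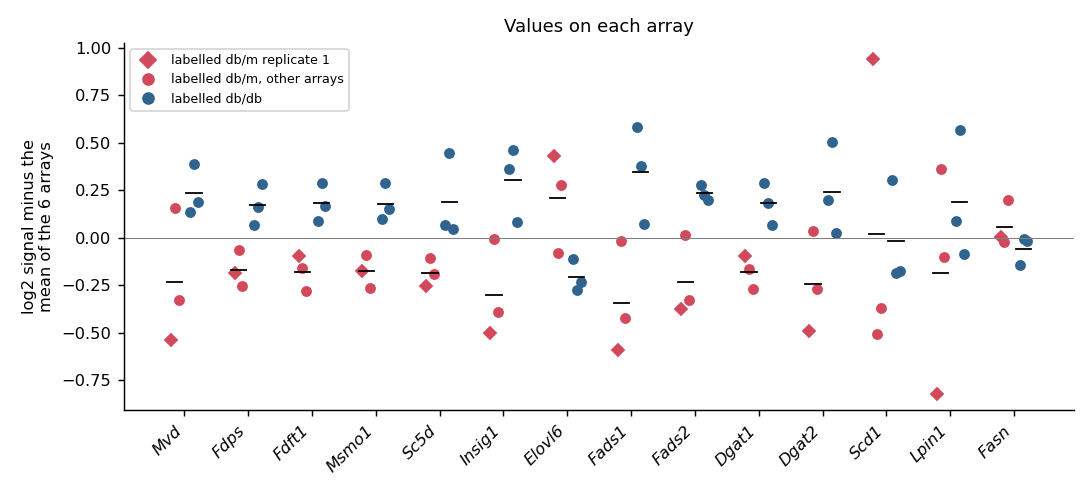
Each point is 1 array: the log2 signal of the 11 members with an unadjusted p under 0.05 and of Scd1, Lpin1 and Fasn, minus the gene's mean over the 6 arrays, with lines at the group means. Array m1 (labelled db/m replicate 1, diamonds) is the lowest array for Mvd, Sc5d, Insig1, Fads1, Fads2, Dgat2 and Lpin1 and the highest for Scd1 and Elovl6.

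The branches were also set side by side on each array, as the mean over a branch's genes of the signal minus the gene's mean over the 6 arrays. The sterol pathway lay at -0.16, 0.00 and -0.16 in labelled db/m and at 0.05, 0.21 and 0.06 in labelled db/db. SREBP control lay at -0.11, -0.07 and -0.20 against 0.11, 0.14 and 0.12, and lipogenesis at -0.03, -0.06 and -0.09 against 0.09, 0.10 and -0.01. In these 3 branches the groups did not overlap, narrowly so for lipogenesis. Triglyceride synthesis lay at -0.23, 0.01 and -0.13 against 0.07, 0.31 and -0.02, where array m2 exceeded array d3. All genes tested lay between -0.0038 and 0.04 in labelled db/m and between -0.04 and 0.03 in labelled db/db. Array d2 was the highest array in the 4 branches and lowest over all genes.

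**Figure D4:**
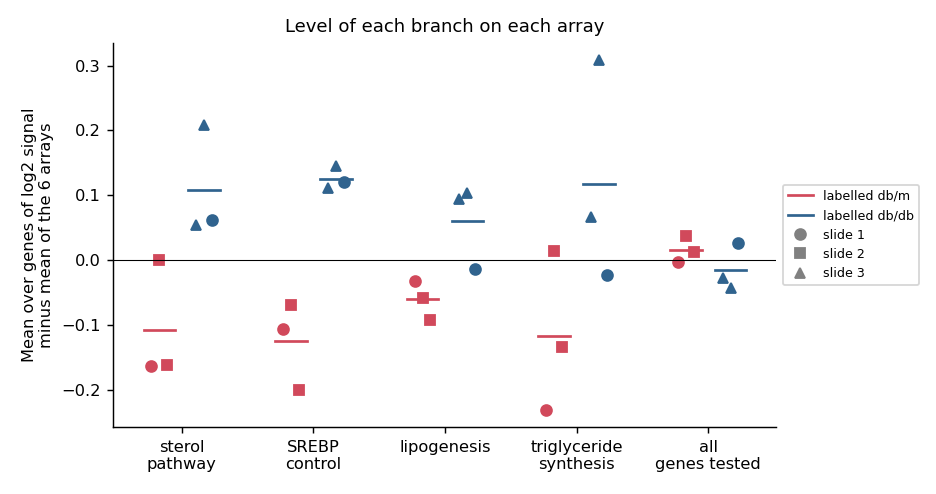
For each branch and for all genes tested, each point is 1 array: the mean over genes of the log2 signal minus the gene's mean over the 6 arrays, with lines at the group means and the slide given by the symbol. Labelled db/m lies below labelled db/db in 3 branches, and in triglyceride synthesis array m2, at 0.01, lies above array d3, at -0.02.

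Probes of the same gene gave a check on the direction within the same arrays. Of the 103 member probes 87 were tested, of which 70 were lower, against 53.5% of all tested probes, and 17 higher. At an unadjusted p under 0.05, 25 were lower (28.7%, against 10.8% of all tested probes) and 2 were higher (against 6.89%). The lower ones belonged to 19 genes and lay in each branch: 12 of 30 probes of the sterol pathway, 3 of 10 of SREBP control, 6 of 32 of lipogenesis and 4 of 15 of triglyceride synthesis. Of the 29 genes with several tested probes, 23 were lower by all of them, 2 were higher by all (Acacb and Cyp51) and 4 were mixed (Acss2, Mlxipl, Lpin1 and Lpin2). Probes of 1 gene share their RNA and are not replicates.

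**Figure D5:**
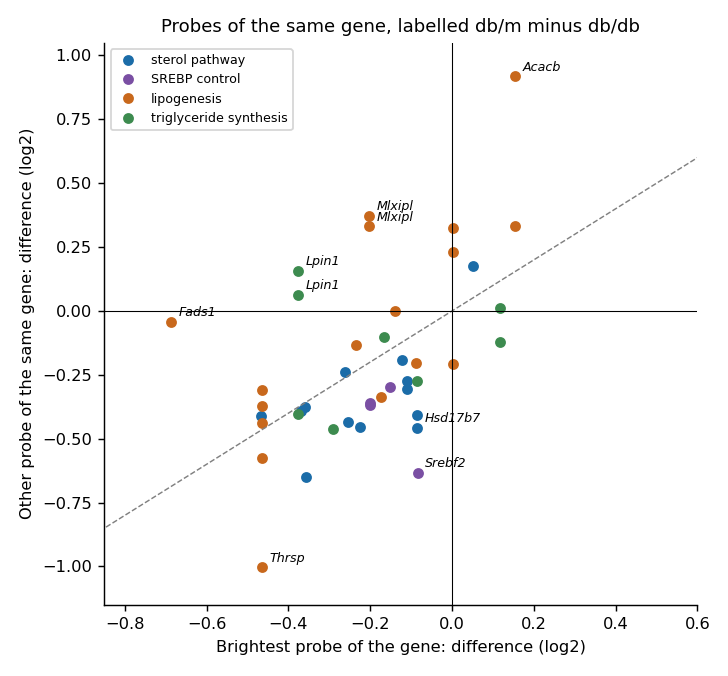
Each point is a dimmer tested probe of a member (vertical axis, difference in log2 units) against the brightest probe of the same gene (horizontal axis), and the dashed line marks equal differences. Names mark the probes farthest from the brightest one, among them Fads1 (-0.69 by its brightest probe and -0.04 by the other) and Acacb (0.15 and 0.92).

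The genes around these pathways were taken from 5 lists, of which 57 of 61 genes were tested. At an unadjusted p under 0.05, 7 were lower (12.3%, against 9.19% of all genes) and 3 higher (5.26%, against 6.67%). These shares at that p are near those of all genes. The median over the 57 was -0.15, against -0.02 for all genes. Of the 57, 43 were below 0, against 52.6% of all genes. In triglyceride storage 16 of 20 were lower and 4 passed: Fitm1 (-0.62), Fitm2 (-0.44) and Bscl2 (-0.40), which help to form lipid droplets, and Lpin3 (-0.40), another lipin. Fitm1 read 0.70, 1.08 and 0.89 against 1.55, 1.59 and 1.38, with no overlap and a limma adjusted p = 0.240. In fatty acid activation and elongation 10 of 12 were lower, and 2 passed in each direction. Tecr (-0.49), the last reductase of chain elongation, and Slc25a1 (-0.50), the citrate carrier, were lower, while Mid1ip1 (0.52), a partner of the acetyl-CoA carboxylases, and Elovl7 (0.35), another elongase, were higher. Npc2 (-0.37), which carries cholesterol out of lysosomes, was the 1 of 11 genes of sterol esters, efflux and uptake, and Pggt1b (0.45), a subunit of a prenyl transferase, the 1 of 8 of the isoprenoid branch. Of 6 genes of SREBP processing none had an unadjusted p under 0.05 and the median was -0.01.

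Markers of other cell types moved with the groups, and their part in these differences was not tested. In bulk tissue, fewer cells of a type and less RNA per cell cannot be told apart. Of all genes, 52.6% were below 0, and at an unadjusted p under 0.05 9.19% were lower and 6.67% higher. In the brightest of the 4 groups by signal, 14.2% were lower at that p and the median was -0.15. Proximal tubule markers marked the tissue as cortex: all 12 were tested, 11 were lower in labelled db/m, 2 at an unadjusted p under 0.05 (Slc6a19 at -1.01 and Slc22a8 at -0.56), and the median was -0.36. Their summed signal, in multiples of the array's 75th percentile, ran from 829 to 1245 in labelled db/m and from 1175 to 1341 in labelled db/db. All 8 immune cell markers were higher, 3 at an unadjusted p under 0.05, with a median of 0.44 and summed signals of 26.3 to 39.5 against 18.8 to 25.3. Of 8 adipocyte markers 5 were tested, and Fabp4, which capillary cells also make, was higher by 0.63. No array held Adipoq or Cfd well above background, and 4 of the 5 tested were higher. The sum ran from 167 to 297 against 270 to 283, nearly all of it from Pck1, which proximal tubule also makes and which differed by -0.31. Without Pck1 it ran from 7.05 to 12.6 against 6.43 to 6.66. No brown adipocyte marker was tested, and no array held Ucp1 well above background. Of 6 adrenal markers 2 were tested, and neither Cyp11b1 nor Cyp11b2 stood well above background. All 4 tested hepatocyte markers were lower without passing, and Cyp7a1 was not well above background. Podocyte markers were 6 of 6 lower with a median of -0.15, blood markers 3 of 3 with -0.35, none with an unadjusted p under 0.05. Of 7 markers of the thick limb, distal convoluted tubule and collecting duct 4 were lower, and 1 of them had an unadjusted p under 0.05, Slc12a3 (-0.91), the cotransporter of the distal convoluted tubule.

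On the arrays, between 51.6% and 59.0% of probes were well above background. The median intensity ran from 76.0 on array d2 to 112 on array m1. The arrays lay on 3 slides: array m1 and array d3 shared a slide, and the other slides held 1 group each. Within that shared slide, 33 of the 45 members were lower, where the median difference of all genes was -0.06. That contrast rests on 1 array per group.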

How the data were processed

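Gene expression was measured in renal cortex on one-colour arrays, with 3 mice labelled db/m and 3 labelled db/db. For every array the deposited scanner output gives a processed intensity per spot from Agilent Feature Extraction 10.7.1.1 (per the labels), background-subtracted and not scaled between arrays. A deposited log2 matrix followed these intensities array by array (Pearson r over probes 0.998 to 1.000). Its column medians lay at 6.11, and its sorted columns differed by at most 0.0434, as after quantile normalization. The source does not state its scaling. No normalization or test for the arrays is given in the sources used here.

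Control spots and flagged outliers were left out (135 probes), spots of a probe were averaged, and log2 intensities were centred on the array's own 75th percentile. The 29886 probes that were well above background on every array of at least one group were compared with lmFit and eBayes of limma 3.58.1 in R 4.3.3, and p-values were Benjamini-Hochberg adjusted over all of them. The procedure was tested on simulated data. A gene stood by its brightest tested probe. The file of array m1 (labelled db/m, replicate 1) held 71 changed gene names, none of a member, so that names came from the other files. Probe coordinates are those of the files (mm9). No member spot was saturated. The number of arrays limits the precision, and exact permutation of 3 against 3 arrays cannot go below p = 0.1.

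Members with an unadjusted p under 0.05 for any tested probe, and the control steps Hmgcs1, Sqle, Srebf2, Srebf1, Insig1, Acaca, Fasn, Scd1, Gpam, Dgat1, Dgat2 and Plin2, were given in full (29 genes), and genes of the neighbouring lists were named at an unadjusted p under 0.05. The members, the neighbouring lists and the marker lists were chosen with earlier results of these data known. The lists were adipocyte, brown adipocyte, adrenal cortex, hepatocyte, proximal tubule, podocyte, thick limb, distal convoluted tubule and collecting duct, immune cell and blood markers. The alternatives were quantile normalization, median centring, normexp correction with an offset of 50, the deposited matrix, 2 other filters on dim probes, a trended robust variance, the methods' t-test (the equal-variance form of the one-way ANOVA they name for other measurements), the mean of a gene's probes, the slide and the replicate number as blocks, and leaving out each array.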

Additional observations from a re-analysis of the deposited data

How the results depend on the processing

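Results were recomputed under 17 alternatives. The median over the 45 members was -0.17 and stayed below 0 under all of them. It was -0.0578 under quantile normalization, -0.0553 with the deposited matrix and -0.36 under median centring, which moved the median of all genes from -0.02 to -0.21 as well. By branch, quantile normalization, the deposited matrix and median centring gave -0.12, -0.11 and -0.41 for the sterol pathway, -0.0929, -0.0929 and -0.38 for SREBP control, 0.0323, 0.0297 and -0.27 for lipogenesis and -0.16, -0.16 and -0.48 for triglyceride synthesis. The mean of all tested probes gave -0.32 for the sterol pathway, -0.30 for SREBP control, -0.0592 for lipogenesis and -0.18 for triglyceride synthesis. Leaving out 1 array, the medians ran from -0.23 to -0.14 over all members, -0.24 to -0.14 for the sterol pathway, -0.24 to -0.16 for SREBP control, -0.16 to -0.0631 for lipogenesis and -0.37 to -0.14 for triglyceride synthesis. The count of lower members at an unadjusted p under 0.05 was 2 with the slide as a block and ran from 3 to 14 with 1 array left out. That of higher members was 0 under median centring, with no filter on dim probes and under the methods' t-test, 2 with the slide as a block, and from 0 to 1 with 1 array left out. Median centring, normexp correction, the filter on all 6 arrays, the trended variance and the mean of probes each gave 1 gene past the adjusted threshold, against 59 genes without array m2 and 123 without array d3.

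Deviations of arrays with the same replicate number correlated at 0.36, 0.15 and 0.05, so that the numbers were not taken as pairs. With the replicate block 14 members were lower, against 12% of all genes, and 1 higher, against 8.25%, and each median was unchanged by construction.

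Some directions turned: 38 of the 45 members were below 0, but 28 under quantile normalization and with the deposited matrix, 44 under median centring and 33 with the slide as a block. Among the 29 genes given in full, quantile normalization and the deposited matrix turned Agpat2 (0.0307 and 0.028), Elovl1 (0.00800 and 0.0118), Hmgcs1 (0.0641 and 0.061), Sqle (0.0455 and 0.0443) and Srebf2 (0.0048 and 0.0017). Median centring turned Acacb (-0.033), Fasn (-0.0713) and Scd1 (-0.15). The slide as a block turned Acaca (0.10), Agpat2 (0.12), Sqle (0.0882) and Srebf1 (0.21). Leaving out 1 array also turned some, which then ranged from -0.00095 to 0.301 for Acacb, -0.421 to 0.301 for Scd1, -0.122 to 0.0400 for Sqle and -0.198 to 0.108 for Srebf2. The causes were not tested. Arrays hold no counts, and 16 of the 103 member probes were too dim to test.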
